A study of Mus musculus with 2 samples.

Results

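Androgens are made from cholesterol in the Leydig cells of the testis, and 10 mouse genes of this pathway are described here, chosen by symbol from the 20476 genes of the count table. All 10 were present: Star, Cyp11a1, Cyp17a1, Hsd3b1, Hsd3b6, Hsd17b3, Insl3, Lhcgr, Nr5a1 and Scarb1. The study profiled whole testicular cell suspensions of adult mice, strain C57BL/CJ;ICR, by droplet single-cell RNA sequencing of 3′ ends. It made 1 library from miR-202-/- mice, which lack a microRNA gene, and 1 library from WT mice. The number of mice behind each library, or whether miR-202 was lost in all cells, is not stated by the labels. The count table joins both libraries, and each cell barcode ends in suffix 1 or suffix 2. No source used here ties a suffix to a genotype, so no comparison of miR-202-/- with WT is made. Values are given under each suffix, as 2 libraries without replicates, and no test is possible between them.

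In the textbook pathway, luteinizing hormone acts on its receptor, Lhcgr, in the Leydig cell membrane and raises cyclic AMP. Cholesterol enters the cell in part through Scarb1, a receptor for high-density lipoprotein, and Star carries it into the mitochondrion. There Cyp11a1 cuts the side chain to give pregnenolone, and 3β-hydroxysteroid dehydrogenases (Hsd3b1 and Hsd3b6), Cyp17a1 and Hsd17b3 turn this into testosterone. Nr5a1, a nuclear receptor, is a transcription factor of steroid-producing cells. Insl3 encodes a peptide hormone of Leydig cells that acts in testis descent and is no enzyme of the pathway.

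The table held 28245 barcodes, 12935 under suffix 1 and 15310 under suffix 2, with median depths of 6061 and 5509 unique molecular identifiers (UMIs, each standing for 1 captured transcript). Barcodes were sorted into gates by marker genes, none of which is among the 10 genes. A barcode entered a somatic or spermatogonial gate with at least 5 detected markers and at least 10 marker UMIs per 10000, and a later germ cell gate with at least 5 markers and at least 2 times the mean marker share. In all, 10383 barcodes passed exactly 1 gate, 275 passed the early and the pachytene spermatocyte gates together and were kept as a class of their own, 303 passed other combinations and were left out, and 17284 passed none. Of the barcode sequences, 73 occurred under both suffixes, 1 of them in the Leydig gate. Levels are CPM, the UMIs of a gene divided by all UMIs of the barcodes in a class, scaled per 1000000. A UMI marks a 3′ end, so the values were not divided by gene length. Intervals are 95% intervals that cover counting error only.

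The Leydig gate held 51 barcodes under suffix 1 (0.394%) and 61 under suffix 2 (0.398%), with median depths of 5290 and 4964 UMIs. All 12 Leydig markers were detected in it, and they summed to 22595 CPM under suffix 1 and 15474 CPM under suffix 2, against 24.9 and 22.1 CPM in barcodes of no gate. These markers set the gate, so a contrast of this kind follows from the gating. They summed to 664 and 1063 CPM in the stromal gate and 257 and 321 CPM in the Sertoli gate. Of 16 Sertoli cell markers, 11 had a UMI in the gate, and they summed to 1324 and 1013 CPM, against 4657 and 5137 CPM in the Sertoli gate. Most of that sum was Clu and Ctsl, while Sox9, Gata1, Wt1, Inhbb and Mro were at 0 UMIs in the Leydig gate under both suffixes. Of 13 stromal markers 11 were detected, at 216 and 406 CPM in all. Their sum was 10070 and 10485 CPM in the stromal gate and 12.2 and 9.64 CPM in barcodes of no gate. Most of the sum in the Leydig gate was Dcn (90.2 and 204 CPM) and Gsn (38.0 and 125 CPM). Pdgfra had 35.6 and 8.60 CPM there, and Tcf21 had 21.4 and 10.8 CPM. Acta2 and Cnn1 were at 0 under both suffixes, and Myh11, Tagln and Lum under suffix 1. The source of these stromal transcripts was not tested. Protamine and transition protein transcripts, products of elongating spermatids, came to 287 and 348 UMIs per Leydig-gated barcode, beside 287 and 284 in the pachytene gate. Pachytene barcodes are deeper, with medians of 30761 and 21952 UMIs. As CPM, these transcripts stood at 34732 and 45667 in the Leydig gate and at 9967 and 11645 in the pachytene gate.

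Among the cholesterol-handling members and enzymes, Cyp17a1, which makes androgens from the C21 steroids, was the most abundant. It reached 3184 CPM (interval 3016 to 3359) under suffix 1 and 2374 CPM (2236 to 2518) under suffix 2 in the Leydig gate, against 0.474 and 0.750 CPM in all other gated barcodes together. Cyp11a1, the side-chain cleavage enzyme, stood at 1749 CPM (1625 to 1880) and 1643 CPM (1528 to 1763) in the Leydig gate, against 0.723 and 0.815 CPM in the others. These ratios are 6715 and 3166 for Cyp17a1 and 2420 and 2016 for Cyp11a1. Star, the mitochondrial cholesterol carrier, had a lower level of 562 CPM (493 to 639) and 546 CPM (481 to 618), against 1.28 and 0.967 CPM in the other gated barcodes. Its ratio of 441 (351 to 556) under suffix 1 and 565 (442 to 727) under suffix 2 was below those of both cytochromes, whose intervals begin at 1588.

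Hsd3b6 and Hsd3b1 encode isoforms of the same enzyme and lie beside each other on mouse chromosome 3 (GRCm38, reverse strand), Hsd3b6 at chr3:98805504-98814443 and Hsd3b1 at chr3:98852194-98859794. Hsd3b6 had 1243 CPM (1139 to 1354) and 675 CPM (602 to 754) in the Leydig gate, against 0.260 and 0.228 CPM in the other gated barcodes. Hsd3b1 had 629 CPM (555 to 709) and 544 CPM (479 to 615), against 0.0790 and 0.185 CPM. Hsd17b3, which makes testosterone from androstenedione, had 373 CPM (317 to 436) and 234 CPM (192 to 283), against 0.0790 and 0.0217 CPM. The lowest of these ratios was 2945, for Hsd3b1 under suffix 2, and the counts in the other gated barcodes were as low as 2 UMIs.

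Outside the enzymes, Insl3 was the second most abundant of the 10 genes under suffix 1, at 2783 CPM (2626 to 2947), and ranked 3 under suffix 2, at 1417 CPM (1311 to 1529), against 0.406 and 0.163 CPM in the other gated barcodes. Lhcgr, the hormone receptor, was low, at 52.2 CPM (32.7 to 79.0) and 77.4 CPM (54.2 to 107). It rested on 22 and 36 UMIs, against 0 and 2 UMIs in all other gated barcodes. With the 0 set at a floor of 3 UMIs over the class, Lhcgr was 1541-fold (463 to 8043) higher in the Leydig gate under suffix 1. Nr5a1 had 56.9 CPM (36.5 to 84.7) and 40.9 CPM (24.6 to 63.8), on 24 and 19 UMIs, against 0.395 and 0.272 CPM in the other gated barcodes. Scarb1 had 35.6 CPM (19.9 to 58.7) and 43.0 CPM (26.3 to 66.4), against 15.3 and 12.8 CPM in the others.

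A gene was called higher when its CPM was at least 2-fold higher under both suffixes, with at least 50 CPM and at least 20 UMIs on the higher side. By this rule 8 of the 10 genes were higher in the Leydig gate than in the other gated barcodes, as were 3.36% of all 19770 genes measured, and 0.693% were lower. Nr5a1 missed it under suffix 2, with 19 UMIs and 40.9 CPM, at ratios of 144 (82.0 to 249) and 150 (78.3 to 284). Scarb1 missed the CPM minimum under both suffixes and the UMI minimum under suffix 1 (15 UMIs), at ratios of 2.33 (1.3 to 3.9) and 3.37 (2.1 to 5.2). The median log2 ratio of the 10 genes was 11.72 under suffix 1 and 11.53 under suffix 2, beside 0.95 and 0.85 over all genes measured. A count of 0 in the Leydig gate was also set at 3 UMIs, which lifts the ratios of genes not found there. Over genes with at least 50 UMIs on both sides the median was -0.23 and -0.22. The same 8 genes were higher than in each other somatic gate with enough barcodes. The background was 3.73% of genes higher and 0.609% lower against the Sertoli gate, and 4.41% and 2.55% against the macrophage gate. It was 5.88% and 0.98% against the T or NK cell gate, 3.91% and 0.826% against the stromal gate, and 12.4% and 0.135% against the erythroid gate. The endothelial gate, with 2 and 8 barcodes, was not compared.

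**Figure D1:**
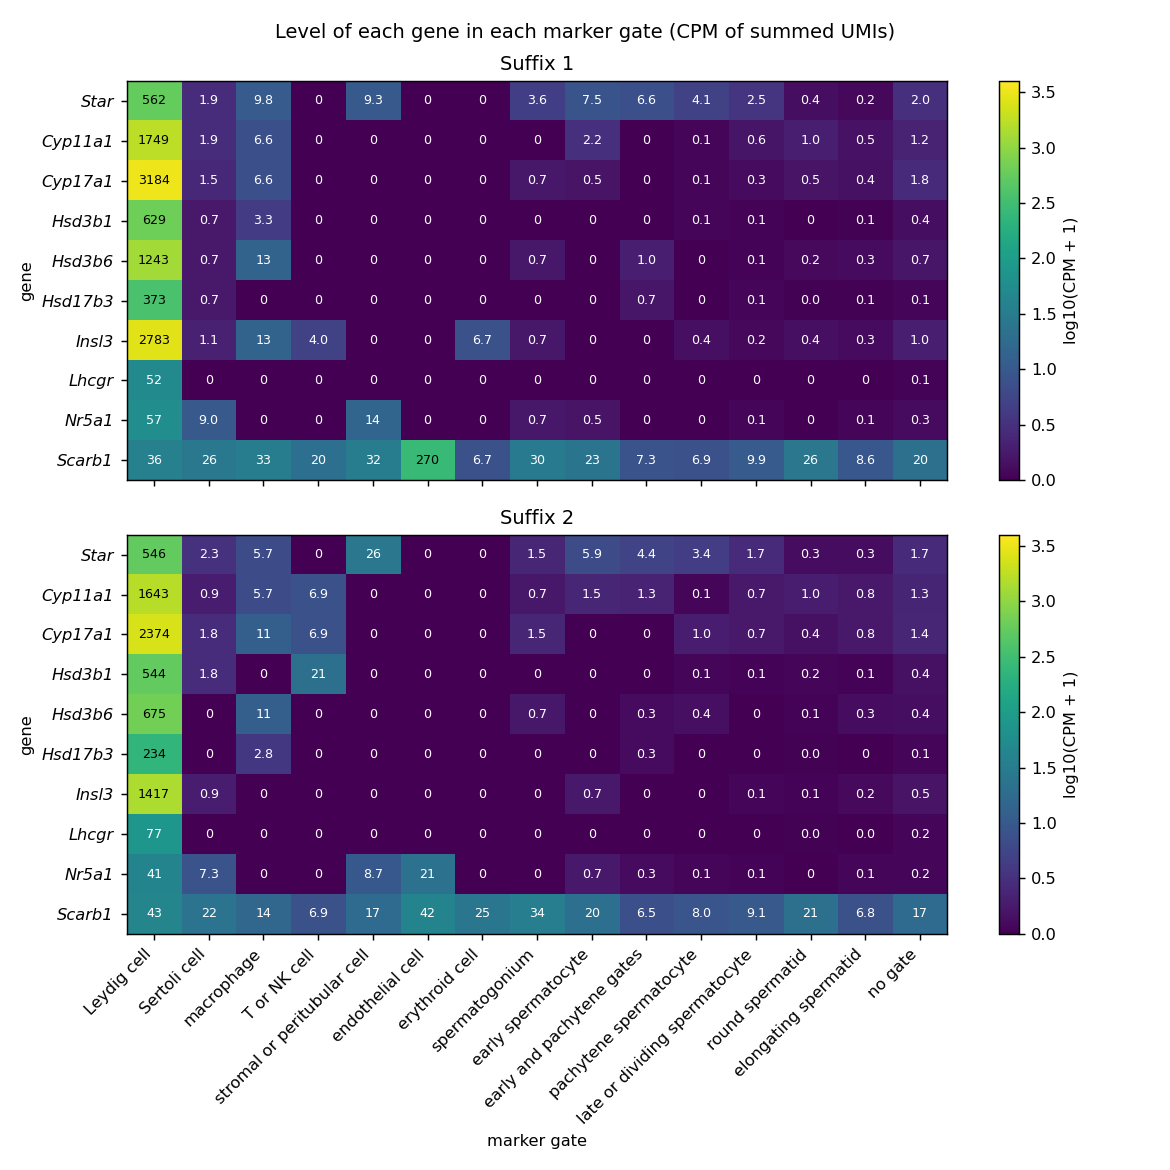
Each cell gives the CPM of a gene (rows) in a marker gate (columns) under suffix 1 (upper panel) and suffix 2 (lower panel), with colour on the log10(CPM + 1) scale. The Leydig gate, at the left, holds Cyp17a1 at 3184 and 2374 CPM, while Scarb1 stands between 6.52 and 43.0 CPM in every gate except the endothelial one, which rests on 4 and 2 Scarb1 UMIs.

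Most UMIs of the enzymes and of Insl3 in the whole table lay in these few barcodes. The Leydig gate held 90.2% of the Insl3 UMIs under suffix 1 and 89.4% under suffix 2, and 88.3% and 82.0% of the Cyp17a1 UMIs. For Hsd17b3 the shares were 88.7% and 88.6%. Star differed, with 46.0% and 47.6% of its UMIs in the gate, and Nr5a1 had 29.3% and 30.6%. Scarb1 had 0.551% and 0.812% there, so nearly all Scarb1 transcripts in the suspension came from other barcodes. A gate built on the steroid genes themselves (at least 4 of the 6 genes Star, Cyp11a1, Cyp17a1, Hsd3b1, Hsd3b6 and Hsd17b3) took 31 barcodes under suffix 1 and 44 under suffix 2. Of these, 28 and 42 were in the Leydig gate, 2 and 2 passed the Leydig and another gate, and 1 and 0 lay outside.

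Within the Leydig gate the 10 genes were spread unevenly over barcodes. A barcode held a median of 5 of the 10 genes under each suffix, 3 barcodes under suffix 1 and 2 under suffix 2 held all 10, and 1 barcode under each suffix held none. The 10 barcodes richest in these transcripts carried 70.8% of their 4496 UMIs under suffix 1 and 67.6% of 3532 under suffix 2. Hsd3b1 was the most concentrated enzyme, with 80.8% and 68.8% of its UMIs in 5 barcodes. The share of the 10 genes in a barcode followed the share of the independent Leydig markers, with a Spearman rho of 0.854 over 51 barcodes and 0.791 over 61, given as a description since barcodes of a library share depth and free RNA. Under suffix 1 the 17 barcodes highest in markers had a median of 154 member UMIs per 10000 and a median depth of 12746 UMIs, and the 17 lowest had 12.5 per 10000 and 4478 UMIs. Under suffix 2 the 20 highest had 109 per 10000 at 6565 UMIs and the 20 lowest 16.1 per 10000 at 4459 UMIs.

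At an equal depth of 1000 UMIs per barcode, Insl3 was found in 70.6% of Leydig-gated barcodes (56.2% to 82.5%) under suffix 1 and 52.5% (39.3% to 65.4%) under suffix 2. Cyp17a1 was found in 56.9% (42.2% to 70.7%) and 55.7% (42.4% to 68.5%), against 0.0549% and 0.0433% of elongating spermatids at that depth. Without thinning, the Cyp17a1 shares were 90.2% and 86.9% in the Leydig gate, at median depths of 5290 and 4964 UMIs, and 0.769% and 1.08% in elongating spermatids, at 15661 and 13972 UMIs. The spermatid shares are taken as the background that free RNA gives in droplets. Insl3 and Cyp17a1 were the 2 genes found in at least 50% of thinned Leydig barcodes under both suffixes.

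Barcodes rich in 3β-hydroxysteroid dehydrogenase transcripts differed in which isoform they carried, a pattern picked out after the values were seen. Among barcodes with at least 10 UMIs of Hsd3b1 and Hsd3b6 together (19 under suffix 1 and 15 under suffix 2), Hsd3b1 made up under 10% of the pair in 9 and 4, over 90% in 3 and 3, and a share between these in 7 and 8. The Hsd3b1-rich extremes were 89 Hsd3b1 UMIs with 0 of Hsd3b6 in a suffix 1 barcode and 70 with 0 in a suffix 2 barcode. At the other end stood 68 Hsd3b6 UMIs with 0 of Hsd3b1 under suffix 1 and 40 with 0 under suffix 2. Other barcodes held both, such as 43 Hsd3b1 and 50 Hsd3b6 UMIs under suffix 1 and 30 and 29 under suffix 2. Cyp17a1 stood at 4088 and 3191 CPM in the barcodes with over 90% Hsd3b1, and at 4297 and 4844 CPM in those with under 10%. In the over 90% class of suffix 2, 1 of the 3 barcodes held 69390 of 92138 UMIs and 198 of 294 Cyp17a1 UMIs. The last 500 bases of the annotated transcripts, where 3′ reads fall, are 79.1% identical between the genes, and none of 410 windows of 91 bases of Hsd3b1 occurs in Hsd3b6. Hsd3b6 shares 62 such windows with Hsd3b2 and 65 with Hsd3b3, genes without a row in the table.

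**Figure D2:**
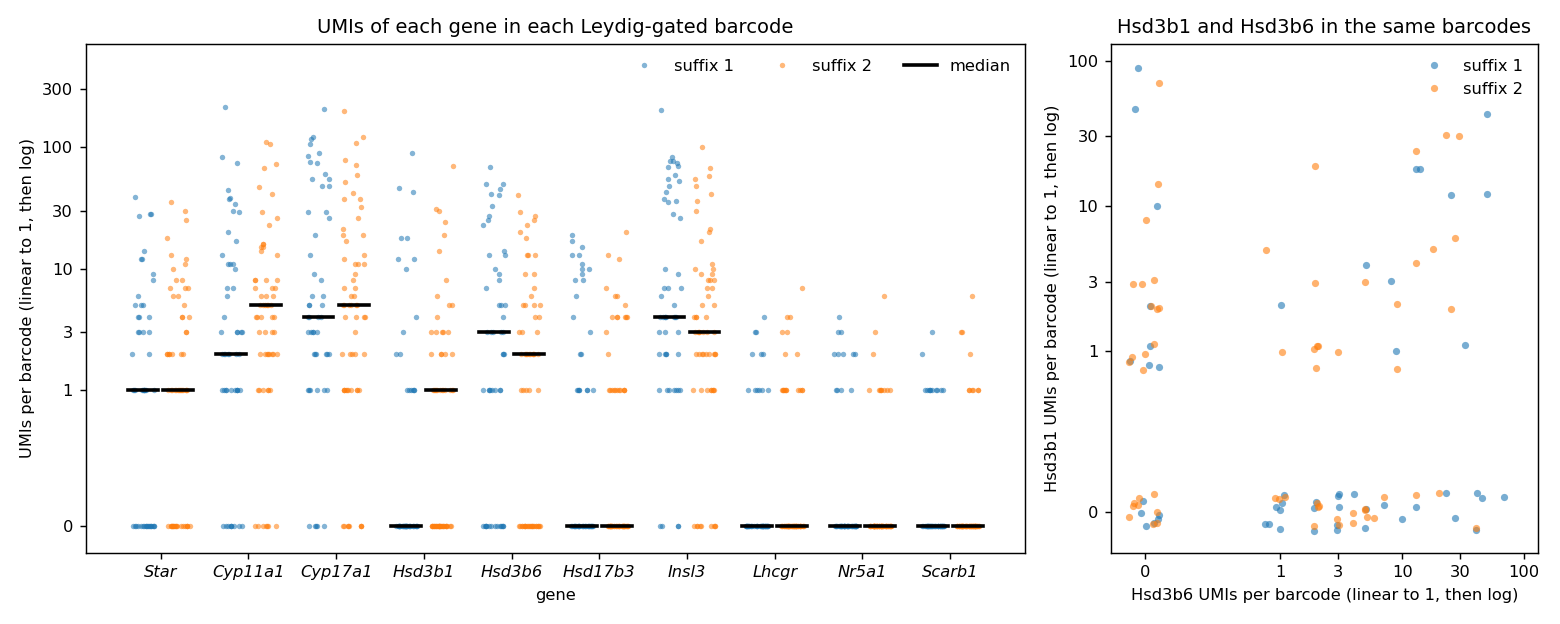
The left panel shows the UMIs of each gene in each Leydig-gated barcode (51 under suffix 1, 61 under suffix 2), with medians as bars, and the right panel shows Hsd3b1 against Hsd3b6 in the same barcodes with small random offsets. Several barcodes with 10 or more UMIs of one isoform lie on the axis where the other is 0, up to 89 Hsd3b1 UMIs and 68 Hsd3b6 UMIs.

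The promoters of both isoform genes are shown so that their bases can be set side by side. Each is the 250 bases before the RefSeq transcript start (GRCm38.p6), Hsd3b1 at chr3:98859795-98860044, reverse strand, and Hsd3b6 at chr3:98814444-98814693, reverse strand.
Hsd3b1: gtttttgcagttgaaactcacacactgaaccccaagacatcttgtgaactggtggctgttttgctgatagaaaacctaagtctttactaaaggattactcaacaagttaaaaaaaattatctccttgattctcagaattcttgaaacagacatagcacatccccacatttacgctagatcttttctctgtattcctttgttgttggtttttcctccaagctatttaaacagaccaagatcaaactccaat
Hsd3b6: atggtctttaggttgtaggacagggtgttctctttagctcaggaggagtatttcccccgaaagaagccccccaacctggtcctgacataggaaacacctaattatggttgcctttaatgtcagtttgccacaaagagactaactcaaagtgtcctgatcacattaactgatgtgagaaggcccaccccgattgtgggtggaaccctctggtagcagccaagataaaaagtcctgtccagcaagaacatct
A global alignment gave 136 identical bases, 77 mismatches and 74 gap positions, an identity of 63.8% over aligned bases. Neither holds the 7-base NR5A1 recognition motif CAAGGTC, nor CAAGGNC with any base at the last but one place, on either strand. Of 10 genes, 6 had a window in the RefSeq table (7 windows), and Insl3 alone held a match. The RefSeq starts of the 2 Cyp11a1 windows lie 8387 and 8541 bases from the start of the annotated gene, and these windows are not printed. Whether they are promoters of the gene was not tested. The Insl3 promoter is printed from 250 to 39 bases before the RefSeq start (chr8:71689002-71689213, forward strand). The 38 bases after it are left out, since the annotation used for positions places them in the first exon. Capitals mark CAAGGTC, 137 to 131 bases before the start, and CAAGGCC, 57 to 51 bases before it.
Insl3: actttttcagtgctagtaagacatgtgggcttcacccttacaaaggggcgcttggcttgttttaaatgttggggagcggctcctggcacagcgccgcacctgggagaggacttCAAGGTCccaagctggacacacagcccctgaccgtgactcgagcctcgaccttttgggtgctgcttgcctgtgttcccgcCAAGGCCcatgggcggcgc
CAAGGTC occurs on either strand in 3.32% of the 32851 windows of that length in the table and CAAGGNC, which includes it, in 15.0%. A match describes the letters of a window and says nothing of binding. Insl3 lies at chr8:71689214-71690575 and shares 404 of its 623 exonic bases (64.8%) with Jak3 on the same strand. Jak3, a kinase of immune cells, had 26.1 and 28.0 CPM in the Leydig gate, against 2.62 and 3.21 CPM in the Sertoli gate. Reads in the shared bases cannot be told apart between these genes, and the Insl3 level is uncertain to that extent.

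Star was detected in germ cell gates at levels far below that of the Leydig gate, and was lower in spermatids than in spermatocytes. Spermatogonia had 3.59 CPM (1.16 to 8.37) under suffix 1 and 1.46 CPM (0.177 to 5.27) under suffix 2, on 5 and 2 UMIs. Early spermatocytes had 7.53 CPM (4.11 to 12.6) under suffix 1 and 5.88 CPM (2.54 to 11.6) under suffix 2, on 14 and 8 UMIs, and the ratio to spermatogonia was 2.10 (0.714 to 7.44) and 4.03 (0.805 to 39.0). In barcodes of both the early and the pachytene gates it had 6.61 CPM (4.04 to 10.2) and 4.44 CPM (2.58 to 7.10), and in pachytene spermatocytes 4.09 CPM (2.80 to 5.78) and 3.45 CPM (2.23 to 5.09). Late or dividing spermatocytes had 2.46 and 1.70 CPM, a ratio to pachytene spermatocytes of 0.602 (0.363 to 1.001) and 0.494 (0.268 to 0.908), which excludes 1 under suffix 2. The ratio intervals of the earlier steps include 1. Round spermatids were lower than late spermatocytes, at 0.366 CPM (0.175 to 0.673) and 0.301 CPM (0.138 to 0.572), a ratio of 0.148 (0.0657 to 0.305) and 0.177 (0.0719 to 0.396). Elongating spermatids had 0.188 and 0.336 CPM and did not differ from round spermatids beyond the intervals. All these levels are below the 50 CPM minimum of the size rule.

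The Star UMIs of spermatocytes were not accompanied by those of other Leydig genes in Leydig proportions. Of the UMIs of Star, Cyp17a1, Cyp11a1 and Insl3 together, Star made up 6.79% (5.98% to 7.68%) and 9.13% (8.09% to 10.3%) in the Leydig gate. It made up 86.5% (71.2% to 95.5%) and 75.8% (57.7% to 88.9%) in pachytene spermatocytes, and 73.7% (48.8% to 90.9%) and 72.7% (39.0% to 94.0%) in early spermatocytes. In late or dividing spermatocytes the share was 69.2% (54.9% to 81.3%) and 51.1% (35.8% to 66.3%). Spermatids were nearer to the Leydig gate, with 15.9% and 17.0% in round and 13.3% and 16.0% in elongating spermatids. In barcodes of no gate, which can hold any cell type, the share was 33.2% and 34.1%. The pachytene Star UMIs were spread thinly, 28 barcodes with 1 and 2 with 2 under suffix 1, and 21 with 1 and 2 with 2 under suffix 2. The 12 Leydig markers summed to 10.9 and 10.8 CPM in pachytene spermatocytes, against 7.42 and 6.79 CPM in round spermatids. Their sums were higher in early spermatocytes, at 22.6 and 18.4 CPM, and in spermatogonia, at 19.4 and 14.6 CPM. Late or dividing spermatocytes had 12.6 and 13.6 CPM. The part of free RNA in the Star levels of these gates was not tested. The gates differ in depth, with medians of 30761 and 21952 UMIs in pachytene and 24523 and 22604 UMIs in round spermatids. At 1000 UMIs per barcode, Star was left in 0 of 272 and 1 of 297 pachytene barcodes, which is too few to compare shares.

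Scarb1 had UMIs in every gate. It stood at 30.1 CPM (21.7 to 40.7) and 33.6 CPM (24.6 to 44.8) in spermatogonia. In the Sertoli gate it had 26.2 CPM (20.4 to 33.1) and 22.5 CPM (16.6 to 29.7), and in early spermatocytes 23.1 and 19.9 CPM. It was lower in pachytene spermatocytes, at 6.90 CPM (5.19 to 9.01) and 8.00 CPM (6.07 to 10.3), a ratio to spermatogonia of 0.229 (0.150 to 0.351) and 0.238 (0.159 to 0.359). Round spermatids were higher again, at 25.5 CPM (23.7 to 27.5) and 20.6 CPM (19.0 to 22.3) on 698 and 616 UMIs, with a ratio to late spermatocytes of 2.59 (2.16 to 3.12) and 2.26 (1.86 to 2.77). Elongating spermatids fell to 8.64 and 6.76 CPM, a ratio to round spermatids of 0.339 (0.293 to 0.390) and 0.328 (0.281 to 0.381). Barcodes of no gate had ratios to elongating spermatids of 2.34 (2.05 to 2.67) and 2.54 (2.21 to 2.93). The Sertoli gate had 3.03 (2.30 to 3.95) and 3.33 (2.40 to 4.54), and early spermatocytes 2.67 (1.89 to 3.70) and 2.94 (1.90 to 4.38). Spermatogonia had 3.49 (2.46 to 4.84) and 4.97 (3.54 to 6.83). How much of the Scarb1 of these gates is free RNA was not tested. The Leydig gate did not differ from the Sertoli gate beyond counting error under suffix 1, with a ratio of 1.36 (0.722 to 2.40), and was higher under suffix 2, with 1.91 (1.08 to 3.28). The endothelial gate gave 4 UMIs from 1 of 2 barcodes and 2 UMIs from 8 barcodes, which is too few for a level.

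**Figure D3:**
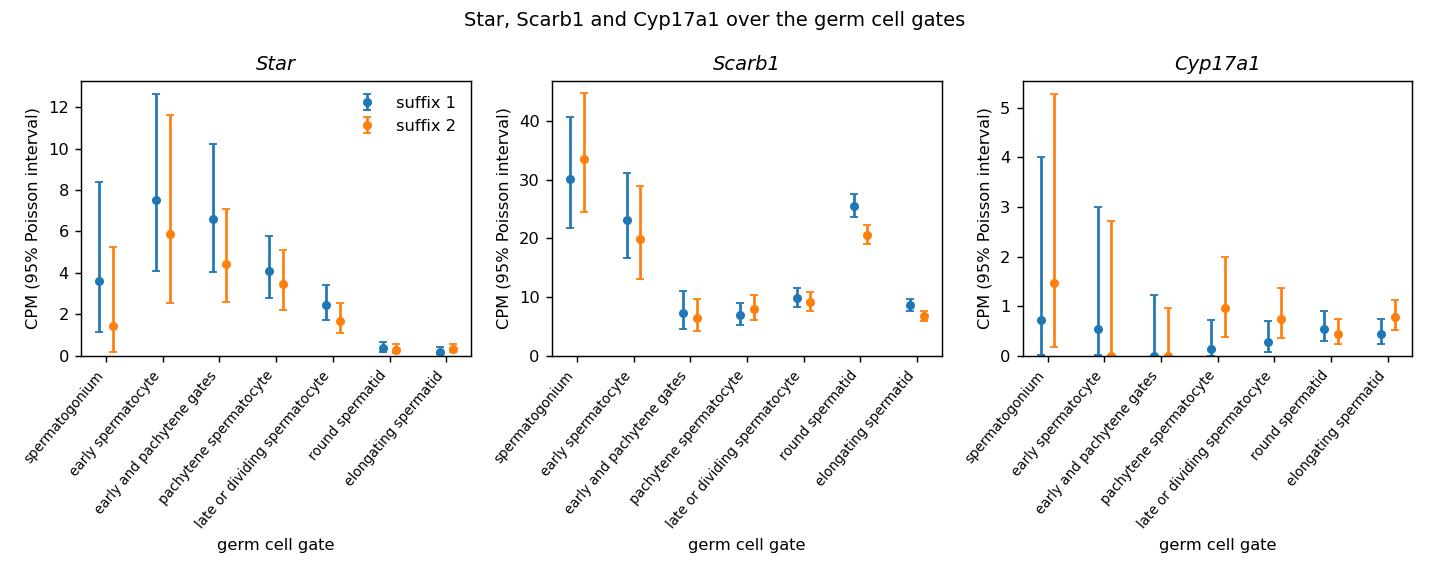
Points show CPM in the germ cell gates in order of maturation for Star, Scarb1 and Cyp17a1 under suffix 1 and suffix 2, with 95% Poisson intervals as bars and separate vertical scales. Star is at 3.59 and 1.46 CPM in spermatogonia, 7.53 and 5.88 CPM in early spermatocytes and below 0.4 CPM in spermatids, Scarb1 is low in pachytene spermatocytes and at 25.5 and 20.6 CPM in round spermatids, and Cyp17a1 is at or under 1.46 CPM throughout.

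Nr5a1, which Sertoli cells also express, was found there at 8.98 CPM (5.76 to 13.4) under suffix 1 and 7.34 CPM (4.20 to 11.9) under suffix 2, on 24 and 16 UMIs. The Leydig gate was 6.34-fold (3.45 to 11.7) and 5.56-fold (2.71 to 11.6) above that. The stromal gate had 13.9 CPM (2.87 to 40.7) and 8.72 CPM (0.221 to 48.6), on 3 and 1 UMIs, intervals that hold the Sertoli level and, under suffix 2, the Leydig level. The endothelial gate had 0 UMIs and 1 UMI (20.8 CPM), each germ cell gate at most 4 UMIs, and macrophages, T or NK cells and erythroid cells 0. Lhcgr had 0 UMIs in every other somatic gate and in spermatogonia and spermatocytes, which allows up to 3 UMIs. That limit is 1.12 and 1.38 CPM in the Sertoli gate, and in the smaller gates it is 13.9 and 26.1 CPM (stromal), 20.1 and 19.0 CPM (erythroid) and 203 and 62.5 CPM (endothelial). With the 0 set at 3 UMIs, the Leydig gate was 3.75-fold (1.13 to 19.6) and 2.96-fold (0.935 to 15.0) above the stromal gate and 2.60-fold (0.780 to 13.5) and 4.08-fold (1.29 to 20.7) above the erythroid gate, so under 1 suffix each the interval includes 1. Macrophages held traces of several of the genes, such as 4 and 4 UMIs of Hsd3b6 and 4 and 0 of Insl3.

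Other genes of the pathway were read from 7 lists, by the same rule, against the other gated barcodes only. Germ cell gates hold most UMIs of that class, such as 31933752 and 35667781 in elongating spermatids, beside 2671400 and 2179091 in the Sertoli gate. No list gene was set against a single somatic gate. Whether these genes are higher than in other somatic cells was not tested. Of 15 genes of cholesterol uptake, storage and delivery, 6 were higher in the Leydig gate and none lower. Their median log2 ratio was 3.90 and 3.78, beside 0.95 and 0.85 over all genes, of which 3.36% were called higher and 0.693% lower. Abca1, a cholesterol exporter, had 161 and 94.6 CPM in the Leydig gate, against 1.65 and 1.49 CPM in the other gated barcodes. Tspo, a protein of the outer mitochondrial membrane, had 123 and 148 CPM, against 2.55 and 2.14 CPM, and Vdac1, the channel of that membrane, had 73.6 and 103 CPM, against 1.99 and 1.87 CPM. Soat1, which esterifies cholesterol for storage, had 128 and 101 CPM, against 8.59 and 7.57 CPM. Of 18 genes of cholesterol synthesis 7 were higher and none lower, with a median of 3.16 and 2.37. These included Msmo1, at 301 and 135 CPM in the Leydig gate, against 1.52 and 1.28 CPM in the others, as well as Ebp and Nsdhl, with ratios between 35.1 and 73.5.

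Electron donors of the steroid enzymes were higher in 5 of 7 cases, with a median log2 ratio of 2.94 and 3.09. Fdxr, the ferredoxin reductase that supplies Cyp11a1, had 261 and 209 CPM in the Leydig gate, against 3.43 and 3.27 CPM, and its partner Fdx1 had 864 and 940 CPM, against 112 and 111 CPM. Cyb5a, which aids the lyase reaction of Cyp17a1, had 273 and 187 CPM, against 18.3 and 16.1 CPM, and Cyb5r3, a cytochrome b5 reductase, had 99.7 and 110 CPM, against 14.6 and 15.1 CPM. Of 12 measured other steroid enzymes 3 were higher, with a median of 5.15 and 4.58. These medians include Cyp11b1 and Cyp19a1, which had 0 UMIs in the Leydig gate under both suffixes and were set at 3 UMIs. The floor alone gave Cyp11b1 log2 ratios of 4.72 and 4.31, so the medians do not describe levels in the gate. Sult1e1, an estrogen sulfotransferase, stood out with 460 and 404 CPM in the Leydig gate, against 0.0677 and 0.120 CPM, and Hsd17b10 and Hsd17b12, dehydrogenases with roles outside androgen synthesis, had ratios between 28.8 and 110.

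Of 15 genes of cyclic AMP signalling, 1 was higher, Gnas, the stimulatory G protein subunit, at 743 and 516 CPM in the Leydig gate, against 28.2 and 27.2 CPM. The median of this list, 1.17 and 0.54, was close to that of all genes. Of 10 measured transcription regulators 4 were higher, namely Cebpb, Fos, Jun and Junb, with ratios between 15.1 and 45.9 and a list median of 4.76 and 4.18. Fos, Jun and Junb are immediate early genes. Of 7 measured hormone receptors and carriers 2 were higher, among them Pgrmc1, a heme-binding membrane protein, at 705 and 664 CPM in the Leydig gate, against 45.2 and 42.6 CPM. No gene of the 7 lists was called lower, beside 0.693% of all genes measured, so this count says little about the lists. Prkar2a (0.499 and 0.614), Crem (0.589 and 0.649) and Akap1 (0.627 and 0.646) had ratio intervals below 1 under both suffixes, without passing the rule.

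**Figure D4:**
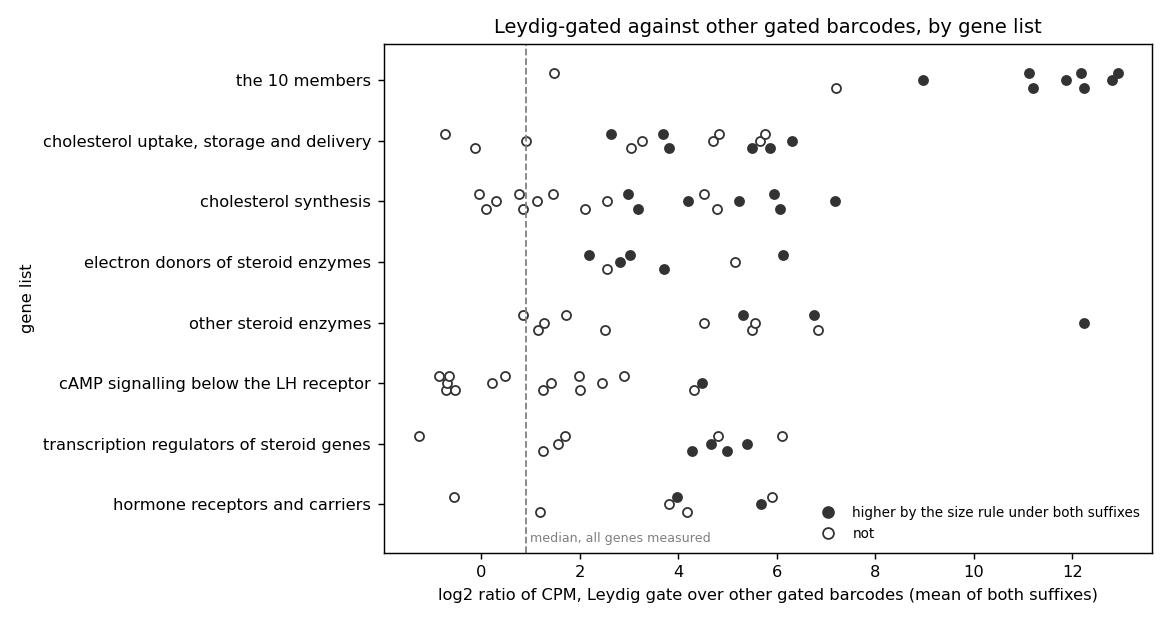
Each point is a gene, placed by its log2 ratio of CPM in the Leydig gate over the other gated barcodes (mean of both suffixes), for the 10 genes (top row) and the 7 lists. Filled points passed the size rule under both suffixes (8 of the 10 genes), and the dashed line marks the median of all genes measured.

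The genes most alike to the 10 in profile were found from log2(CPM + 10) over 26 values (gates and suffixes), by Pearson r with the mean of the 10 genes, among 3315 genes with at least 20 UMIs in the Leydig gate under each suffix. They were Sult1e1 (r = 0.996), Klk1b24, Cstdc2, Hao2, Ces1d, Bpifb5, Klk1b27, Aldh1a7, Scd1 and Bhmt (r = 0.986). Of these, Klk1b24, Hao2, Klk1b27 and Bhmt are markers that defined the gate. Every candidate had UMIs in the Leydig gate, and most of the 10 genes were near 0 CPM elsewhere. The r therefore rests mainly on the Leydig values, and any gene confined to this gate scores high. Each of the 10 genes is part of the mean it was set against. Among them Cyp11a1 had the highest r with that mean (0.995), Star had 0.968, Nr5a1 0.827 and Scarb1 0.274.

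Between the suffixes, with 1 library on each side and intervals for counting error only, 3 of the 10 genes in the Leydig gate were past 1.5-fold. Insl3 was higher under suffix 1, at 2783 CPM, against 1417 CPM under suffix 2, a ratio of 1.96 (1.78 to 2.16). Hsd3b6 was higher by 1.84 (1.60 to 2.12) and Hsd17b3 by 1.59 (1.24 to 2.05). The rule also asked for at least 50 CPM and 20 UMIs on the higher side. By it 8.77% of 3762 genes measured were higher under suffix 1, and 12.7% were lower, none of the 10 genes among these. Cyp17a1 had a ratio of 1.34 (1.24 to 1.45), which excludes 1 and is short of 1.5-fold. Star had 1.03 (0.859 to 1.23), Cyp11a1 1.06 (0.961 to 1.18) and Hsd3b1 1.16 (0.969 to 1.38), whose intervals include 1. Lhcgr had 0.674 (0.378 to 1.18), Nr5a1 1.39 (0.732 to 2.69) and Scarb1 0.828 (0.394 to 1.70), intervals too wide to tell a difference of 1.5-fold from none.

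The differences moved with other values of the same barcodes. The Leydig markers that set the gate also summed higher under suffix 1, at 22595 CPM, against 15474 CPM under suffix 2, and spermatid transcripts were at 287 and 348 UMIs per barcode. With the profile of the barcodes of no gate subtracted, scaled on those transcripts, 54.4% of the gate's UMIs were removed under suffix 1 and 71.6% under suffix 2. Barcodes of no gate had median depths of 4970 and 4552 UMIs and can hold any cell type. Their profile is thus not one of free RNA alone. The CPM were then 6100 and 4987 for Insl3, 2725 and 2376 for Hsd3b6, and 816 and 825 for Hsd17b3, so that none of the 3 genes was past 1.5-fold. Cyp17a1 stood at 6978 and 8347 CPM and Hsd3b1 at 1378 and 1915 CPM. Star (1227 and 1915 CPM), Cyp11a1 (3832 and 5774 CPM) and Lhcgr (114 and 272 CPM) were then past 1.5-fold lower under suffix 1, with ratios of 0.641, 0.664 and 0.420. Without the 5 barcodes of most UMIs under each suffix, Insl3 alone remained past 1.5-fold, with log2 ratios of 0.86 for Insl3, 0.54 for Hsd3b6 and 0.50 for Hsd17b3. As means over barcodes of each barcode's CPM, the log2 ratios were 0.79, 0.37 and 0.46 for these genes. With barcodes of 2 gates kept, Hsd17b3 had 0.47. The part of free RNA and of barcode make-up in these differences was not tested, and 1 library stands on each side.

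**Figure D5:**
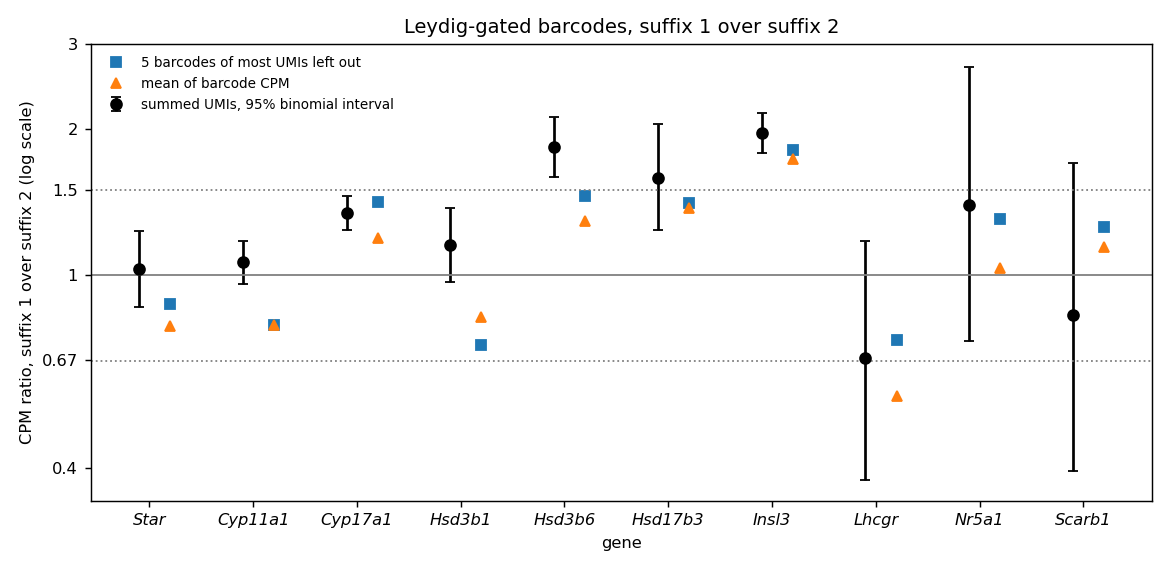
Black points show the CPM ratio of suffix 1 over suffix 2 in the Leydig gate with 95% binomial intervals on a log scale, squares the ratio without the 5 barcodes of most UMIs under each suffix, and triangles the ratio of mean barcode CPM. Dotted lines mark 1.5-fold, and Insl3, at 1.96, is the gene that stays above the line in all 3 forms drawn. With the profile of barcodes in no gate subtracted, which is not drawn, its ratio is 1.22.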

How the data were processed

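The authors deposited 1 table of UMI counts per gene and cell barcode for both libraries, and its values are whole numbers that were not normalised, as the values themselves show. Cell Ranger 1.3.1, Seurat 3.2.2 and build GRCm38 are named in the submitters' processing notes. A barcode filter is not given in the sources. The suspensions were sorted to take out debris and run with 3′ droplet chemistry, per the labels' protocols.

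From the deposited counts, UMIs were summed per gate and suffix and given as CPM. A ratio carries an exact conditional binomial 95% interval and a level an exact Poisson one. Shares carry Clopper-Pearson intervals. A count of 0 was set to 3 UMIs over the class in ratios. With 1 library per genotype, and suffixes that no source ties to a genotype, no test was made and no replicate exists. No doublet caller was run. Barcodes that passed more than 1 gate were left out, except the 275 that passed the early and the pachytene spermatocyte gates together. Gate thresholds were set after the marker distributions had been seen. The members and lists were chosen with earlier results of these data known. Named list genes are the up to 4 of each list with the largest absolute log2 ratio among those past the size rule. Some genes that this rule takes are not reported here. Depth was 158740437 UMIs under suffix 1 and 168967776 under suffix 2. The size rule was tested on simulated counts. Positions are from a GENCODE annotation of GRCm38, and promoters from RefSeq (GRCm38.p6). Python 3.11.15, numpy 2.4.6, scipy 1.17.1, pandas 2.3.3, matplotlib 3.10.9 and biopython 1.88 were used. Alternatives covered gates, thresholds, scaling, thinning, profile subtraction and deep barcodes.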

Additional observations from a re-analysis of the deposited data

How the results depend on the processing

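The count of genes higher in the Leydig gate was 8 of 10 and lay between 6 and 9 over all settings tried. These were 1 marker more, a steroid enzyme gate, barcodes of 2 gates kept, 1.5-fold and 4-fold rules, no CPM minimum and another scaling. Also tried were subtraction of the elongating spermatid or the no-gate profile, barcode sequences of both suffixes left out, and thinning to 1000 UMIs. The count of list genes was 28 and fell to 4 after thinning, where fewer UMIs reach the minimum of 20. The number of genes past 1.5-fold between suffixes was 3, rose to 5 with 1 marker more (Lhcgr and Nr5a1 added) and fell to 1 without the 5 barcodes of most UMIs. Hsd3b1 reversed, with a log2 ratio of -0.59 without the 5 barcodes that hold most of its UMIs, against 0.21 with them. With the profile of barcodes in no gate subtracted, Star (-0.64), Cyp11a1 (-0.59), Hsd3b1 (-0.47), Cyp17a1 (-0.26), Nr5a1 (-0.20) and Hsd17b3 (-0.015) changed sign. The 3 genes past 1.5-fold were then Star, Cyp11a1 and Lhcgr, all lower under suffix 1. The number of genes found in at least 50% of Leydig barcodes under both suffixes was 2 at 1000 UMIs, 3 at 2000 UMIs and 5 without thinning, where depth is greater. For the moves between suffixes the cause was not tested. No paired analysis was possible because each genotype has 1 library and no test was made. Alternatives with subtraction of the profile of barcodes in no gate, single barcodes left out per gene, mean barcode CPM, unthinned shares, and those on shared barcode sequences were chosen after seeing the data. Lhcgr, Nr5a1 and Scarb1, with 15 to 36 UMIs per suffix in the Leydig gate, are limited by depth.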

Other observations

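Cyp21a1, an enzyme of the adrenal cortex among the other steroid enzymes, had 29 UMIs in 4 Leydig-gated barcodes under suffix 1 and 2 UMIs in 2 barcodes under suffix 2. It was chosen after its values were seen. Of the 29 UMIs, 26 came from 1 barcode of 29277 UMIs, which also held 213 Cyp11a1, 105 Cyp17a1, 199 Insl3 and 89 Hsd3b1 UMIs and 0 of Hsd3b6. The level of this gene under suffix 1 is thus that of 1 barcode.

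Barcodes that passed the Leydig and the stromal gates together, left out above, numbered 13 under suffix 1 and 7 under suffix 2. They held 251 and 305 CPM of Hsd3b6, 106 and 1197 CPM of Cyp17a1 and 79.2 and 718 CPM of Star. Their median depths were 5842 and 5344 UMIs. Whether they are doublets was not tested.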
